A study of Mus musculus with 12 samples.

Results

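The MAP kinase feedback inhibitors described here are 10 genes of 3 families: the dual-specificity phosphatases Dusp1, Dusp4, Dusp5, Dusp6 and Dusp10, the Sprouty genes Spry1, Spry2 and Spry4, and the Spred genes Spred1 and Spred2. They were chosen by gene symbol among the 18193 mouse genes measured on the arrays, with earlier results of these data known. Of the 34945 probe sets that name a single gene, 26 belong to them. Where a gene had several, the probe set of highest mean over all 12 arrays stood for it, and the others served as a check. Preovulatory granulosa cells, the steroid-producing cells that line the ovarian follicle, had been cut by laser microdissection from antral follicles of 3-week-old mice, and each sample was hybridised to 1 Affymetrix array. The 4 groups of 3 arrays crossed genotype with hormone. bERKO mice, which lack estrogen receptor beta, had received PMSG and then hCG (bERKO hCG), and so had wild-type mice (WT hCG). The other bERKO mice (bERKO PMSG) and wild-type mice (WT PMSG) had received PMSG alone. All 4 groups had thus received PMSG, a gonadotropin that acts like follicle-stimulating hormone, and cells of the PMSG groups were taken 48 h after it. hCG acts like luteinizing hormone, and cells of the hCG groups were taken 4 h after it, a time that the study's design gives as the peak of the transcriptional response. For the hCG groups 48 h after PMSG is recorded as well. If that was when hCG was given, their cells were taken later after PMSG, and changes with hCG also span that time. Replicates are labelled as biological, but the number of animals behind each array, the strain and how the receptor gene was disrupted are not given in the sources used here. If replicates shared animals, the p-values below measure only the spread between these samples.

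The MAP kinases ERK, JNK and p38 are switched on by phosphorylation of a threonine and a tyrosine, and dual-specificity phosphatases remove both phosphates. Sprouty and Spred proteins act further upstream, between receptor tyrosine kinases and the RAF kinases. Several of these inhibitors are themselves transcribed in response to ERK activity, which makes them a negative feedback loop. In mouse preovulatory follicles, luteinizing hormone raises cyclic AMP in granulosa cells and induces EGF-like ligands, which activate the EGF receptor and ERK, and this ERK activity is required for ovulation.

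Levels below are log2(intensity + 16) after quantile normalization, so an intensity of 0 lies at 4, and values of 3 arrays are given in the order of replicates 1, 2 and 3. A change is a difference of group means on that scale with its standard error (SE, n = 3 arrays per group). A fold is that difference turned back to a linear ratio of (intensity + 16), which understates the change of dim genes. Adjusted p-values come from limma with Benjamini-Hochberg adjustment over all 18193 genes, two-sided, and an adjusted p under 0.05 counts as a call. The median intensity per array ran from 49.1 to 112, and 18.7% to 30.0% of an array's signals lay under 16. Esr2, which encodes estrogen receptor beta, measured 8.13 to 8.64 on the 6 bERKO arrays, against 8.68 to 10.33 on the 6 WT arrays. The bERKO and WT ranges did not overlap, but the difference passed the test neither after hCG (adjusted p = 0.397) nor after PMSG (adjusted p = 0.307), and whether its probe set reads a stretch that the mutation removes was not tested, so the level checks the labels only in part. A pair of arrays stood apart in RNA integrity: the 3'/5' signal ratio of Gapdh, higher in degraded RNA, was 32.2 on WT hCG replicate 1 and 23.7 on bERKO PMSG replicate 3, against 4.72 to 11.2 on the other arrays. On the first principal component of all genes (36.8% of the variance), WT hCG replicate 1 lay at -24.3, against 27.2 and 32.5 for the other WT hCG arrays and -44.4 to -36.1 for the WT PMSG arrays, and bERKO PMSG replicate 3 lay at -69.5, against -58.8 and -54.0 for the other bERKO PMSG arrays. Results for the 10 genes are given without these arrays as well where leaving them out changed a call or moved a change by more than 1.5-fold.

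After hCG, 8 of the 10 feedback inhibitors rose in bERKO granulosa cells: all 5 phosphatases, Spry2, Spred1 and Spred2. Over all genes, 7.05% were called higher in that comparison. The 8 rises ran from 3.12-fold for Spred1 to 30.4-fold for Dusp6, and the 3 bERKO hCG arrays lay above the 3 bERKO PMSG arrays for each of the 8 genes, as they did for 13.3% of all genes. Without both arrays of high Gapdh ratio each of the 8 was called as well. Spry1 and Spry4 did not pass the test. The median change over the 10 genes was 2.55, against -0.19 over all genes. In WT granulosa cells, 1 of the 10, Spred2, was called higher after hCG, where 0.731% of all genes were (133 genes, and 17 without WT hCG replicate 2), and the median change of the 10 genes was 0.67, against -0.08 over all genes. Dusp5 and Spred2 were the 2 genes whose WT hCG arrays all lay above the WT PMSG arrays, as 8.79% of all genes did. The bERKO hCG mean was the highest of the 4 group means for all 10 genes. These are bulk samples, in which fewer cells of a type and less RNA per cell cannot be told apart.

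**Figure D1:**
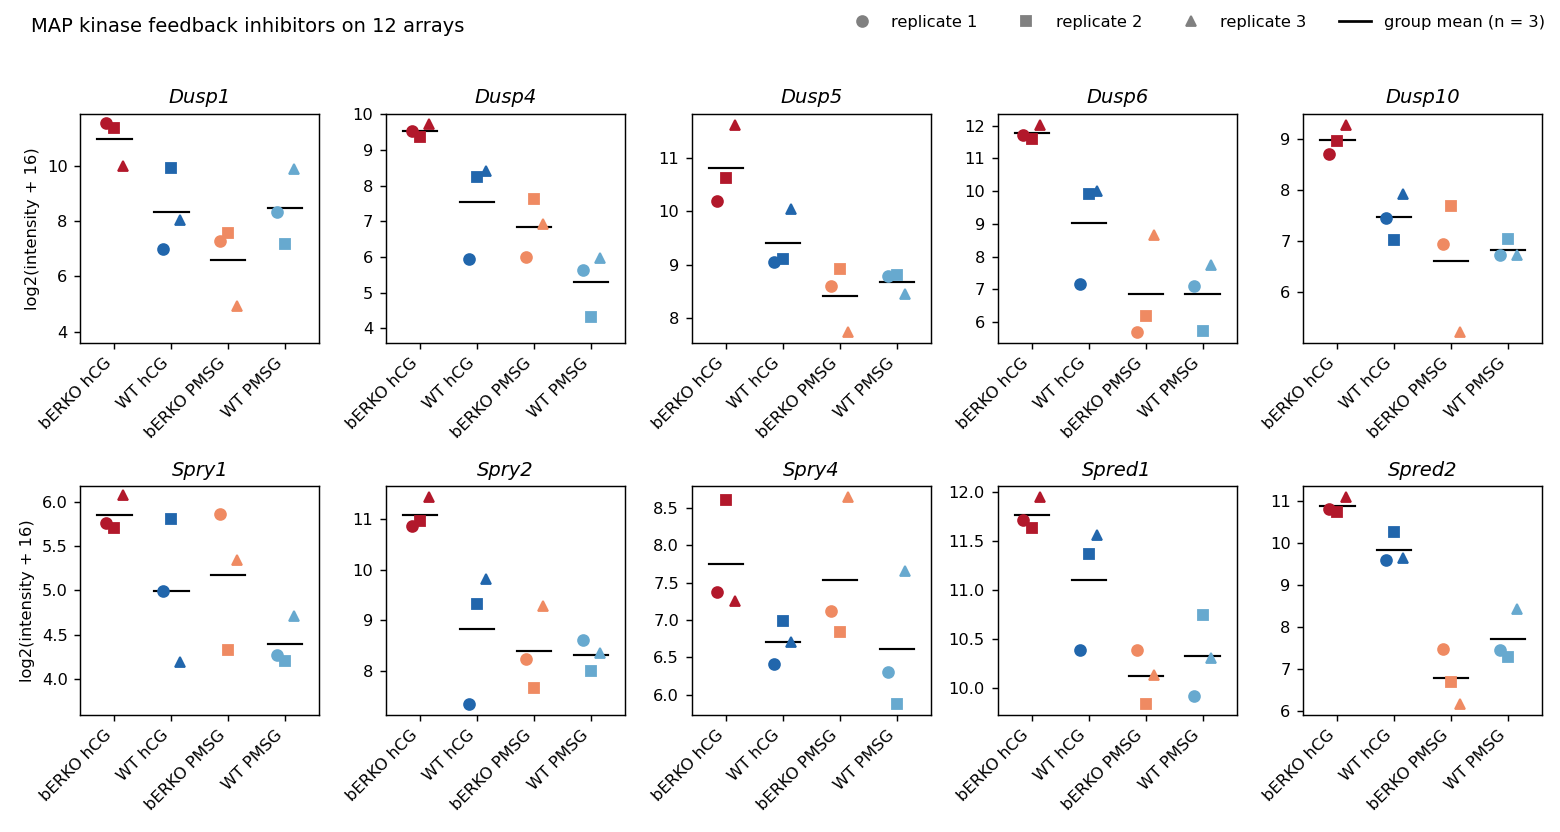
Level of each feedback inhibitor on the 12 arrays, as log2(intensity + 16) on the vertical axis of its own panel; each symbol is 1 array and the black bar is the group mean (n = 3). For 8 of the 10 genes the 3 bERKO hCG arrays lie above all bERKO PMSG arrays, and WT hCG replicate 1 (dark blue circle) is the lowest of its group for 8 of the 10.

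Promoter sequence was at hand for 8 of the 10 genes (Dusp4 and Spry4 were not matched) in RefSeq's annotation of GRCm38.p6. The 250 bases upstream of the transcription start were searched on both strands for 6 motifs of factors that act downstream of cyclic AMP and ERK. The full cyclic AMP response element TGACGTCA was present in Dusp1 and in 1.55% of 32851 promoters. Its core TGACG, which the full element holds on each strand, was present in 3 of the 8 (Dusp1, Dusp5 and Spred2) and in 17.8% of all promoters. The CArG box, the site of serum response factor, was present in Dusp5 in a pair of adjoining copies, and in 1.47% of all promoters. The AP-1 site TGANTCA (6.75% of all promoters), the EGR site GCGTGGGCG (0.536%) and the ETS site CCGGAAGT (2.88%) were present in 0 of the 8 windows. The stretches with matches are printed because these 3 genes were among those that rose after hCG in bERKO cells; capitals mark the cyclic AMP elements in Dusp1 and Spred2, and in Dusp5 the pair of CArG boxes (20 bases in 1 run) and the core element on the opposite strand. They run from 200 to 101 bases upstream of the start in Dusp1 (chr17:26508573-26508672, minus strand), from 110 to 21 bases upstream in Dusp5 (chr19:53529035-53529124, plus strand) and from 100 to 1 base upstream in Spred2 (chr11:19924342-19924441, plus strand).
Dusp1: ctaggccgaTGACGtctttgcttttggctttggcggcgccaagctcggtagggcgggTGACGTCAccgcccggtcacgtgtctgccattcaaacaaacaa
Dusp5: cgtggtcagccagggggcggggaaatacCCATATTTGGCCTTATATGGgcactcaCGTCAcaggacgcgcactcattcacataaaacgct
Spred2: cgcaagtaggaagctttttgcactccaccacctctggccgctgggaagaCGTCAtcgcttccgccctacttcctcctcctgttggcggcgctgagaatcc
A match describes letters in this window and says nothing of whether a factor was bound there.

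Dusp1 encodes a nuclear phosphatase of p38, JNK and ERK and is an immediate early gene in many cells. Its level was 11.56, 11.39 and 10.02 in bERKO hCG, 6.99, 9.93 and 8.06 in WT hCG, 7.30, 7.59 and 4.91 in bERKO PMSG, and 8.34, 7.17 and 9.92 in WT PMSG cells. All bERKO hCG arrays were above every other array, and the WT groups overlapped. Dusp1 rose 21-fold with hCG in bERKO cells (change 4.39, SE 0.92, adjusted p = 0.00673), while its WT change was -0.15 (SE 0.92, adjusted p = 0.962). The low bERKO PMSG value of 4.91 came from replicate 3, an array with a high Gapdh ratio, and without both such arrays the bERKO change was 3.55 (adjusted p = 0.0164) and the WT change turned to 0.52 (adjusted p = 0.787).

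Dusp4, which encodes a nuclear phosphatase of ERK and JNK, measured 9.53, 9.37 and 9.73 in bERKO hCG, 5.94, 8.25 and 8.41 in WT hCG, 6.0, 7.62 and 6.92 in bERKO PMSG, and 5.63, 4.31 and 5.96 in WT PMSG cells. The bERKO hCG arrays stood above all others, and WT hCG replicate 1 lay among the WT PMSG arrays. Dusp4 rose 6.48-fold with hCG in bERKO cells (change 2.70, SE 0.65, adjusted p = 0.0144), a call lost without bERKO PMSG replicate 1 (adjusted p = 0.0534). Its WT change of 2.24 (SE 0.65, adjusted p = 0.103) did not pass, and without WT hCG replicate 1 it was 3.03 (adjusted p = 0.0191). Dusp4 was dim in WT PMSG cells, with intensities of 33.6, 3.85 and 46.0, so the constant added before the logarithm affects this size. The WT change was 1.45 with log2(intensity + 64) and 3.04 with log2(intensity + 1).

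Dusp5 encodes a nuclear phosphatase selective for ERK. It measured 10.20, 10.63 and 11.63 in bERKO hCG, 9.04, 9.11 and 10.04 in WT hCG, 8.60, 8.91 and 7.73 in bERKO PMSG, and 8.78, 8.81 and 8.44 in WT PMSG cells. Every hCG array was above every PMSG array in both genotypes. The rise was 5.29-fold in bERKO cells (change 2.40, SE 0.43, adjusted p = 0.00308), and the WT change was 0.72 (SE 0.43, adjusted p = 0.444).

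Dusp6, which encodes the cytoplasmic ERK-selective phosphatase and is a widely used transcriptional readout of ERK activity, had the largest bERKO change of the 10. It measured 11.70, 11.59 and 12.03 in bERKO hCG, 7.16, 9.92 and 10.01 in WT hCG, 5.69, 6.18 and 8.67 in bERKO PMSG, and 7.11, 5.72 and 7.73 in WT PMSG cells. The bERKO hCG arrays were tight and far above the rest, while the WT hCG group was split, with replicate 1 inside the WT PMSG range. Dusp6 rose 30.4-fold with hCG in bERKO cells (change 4.93, SE 0.87, adjusted p = 0.0028), and 57.2-fold without bERKO PMSG replicate 3, the highest of its group (change 5.84, adjusted p = 0.0018). Its WT change was 2.18 (SE 0.87, adjusted p = 0.224), and 3.11 without WT hCG replicate 1 (adjusted p = 0.0702) or 3.11 without both arrays of high Gapdh ratio, where it passed (adjusted p = 0.0143).

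Dusp10 encodes a phosphatase of JNK and p38 that spares ERK. Its level was 8.72, 8.97 and 9.29 in bERKO hCG, 7.46, 7.02 and 7.93 in WT hCG, 6.94, 7.70 and 5.22 in bERKO PMSG, and 6.74, 7.05 and 6.73 in WT PMSG cells. Again the bERKO hCG arrays lay above all others, and the WT hCG and WT PMSG arrays overlapped by a narrow margin. Dusp10 rose 5.17-fold in bERKO cells (change 2.37, SE 0.51, adjusted p = 0.00823), and its WT change was 0.63 (SE 0.51, adjusted p = 0.605). Without bERKO PMSG replicate 3, the lowest of its group, the rise in bERKO cells was 3.19-fold (change 1.67, adjusted p = 0.0104).

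Among the Sprouty genes, Spry2 responded to hCG in bERKO cells and the other two did not pass the test. Spry2 measured 10.87, 10.97 and 11.45 in bERKO hCG, 7.34, 9.32 and 9.83 in WT hCG, 8.23, 7.67 and 9.28 in bERKO PMSG, and 8.62, 8.0 and 8.35 in WT PMSG cells. WT hCG replicate 1 was the lowest of all 12 arrays, and the other two WT hCG arrays were above the WT PMSG arrays. The rise in bERKO cells was 6.52-fold (change 2.70, SE 0.58, adjusted p = 0.00807), against a WT change of 0.51 (SE 0.58, adjusted p = 0.738) that became 1.25 without both arrays of high Gapdh ratio (adjusted p = 0.061). A second Spry2 probe set gave a larger change in each genotype, 4.51 in bERKO (adjusted p = 0.00191 in a fit of all probe sets) and 2.67 in WT cells, which did not pass (adjusted p = 0.101). On that probe set WT hCG replicate 1 was the highest of its group, at 10.06 against 7.28 and 9.14.

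Spry1 was dim, at 5.76, 5.70 and 6.08 in bERKO hCG, 4.99, 5.81 and 4.19 in WT hCG, 5.86, 4.33 and 5.34 in bERKO PMSG, and 4.27, 4.21 and 4.71 in WT PMSG cells. The groups overlapped within each genotype, several arrays were close to the level of 4 that an intensity of 0 gives, and the hCG change was 0.67 in bERKO (SE 0.45, adjusted p = 0.332) and 0.60 in WT cells (adjusted p = 0.56). Spry4 measured 7.37, 8.61 and 7.25 in bERKO hCG, 6.41, 6.98 and 6.71 in WT hCG, 7.12, 6.84 and 8.65 in bERKO PMSG, and 6.30, 5.87 and 7.66 in WT PMSG cells. Its groups overlapped in both genotypes, with an hCG change of 0.20 in bERKO (adjusted p = 0.848) and 0.09 in WT cells (adjusted p = 0.964), and none of its 4 probe sets passed in any comparison.

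Both Spred genes, whose proteins hold RAS signalling down at the membrane and, in the case of Spred1, bring the RAS inactivator neurofibromin there, rose with hCG in bERKO cells. Spred1 measured 11.71, 11.63 and 11.95 in bERKO hCG, 10.39, 11.37 and 11.56 in WT hCG, 10.39, 9.84 and 10.14 in bERKO PMSG, and 9.92, 10.75 and 10.31 in WT PMSG cells. Its bERKO hCG arrays were above all others, by a narrow margin over WT hCG replicate 3. The rise in bERKO cells was 3.12-fold (change 1.64, SE 0.34, adjusted p = 0.00687), and the WT change was 0.78 (SE 0.34, adjusted p = 0.274). Of its 8 probe sets, 4 were called higher in bERKO cells, and the changes ran from -0.78 to 2.18.

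Spred2 gave the smallest p of the 10 in both genotypes. It measured 10.81, 10.74 and 11.10 in bERKO hCG, 9.60, 10.27 and 9.64 in WT hCG, 7.48, 6.70 and 6.16 in bERKO PMSG, and 7.46, 7.28 and 8.43 in WT PMSG cells. In both genotypes every hCG array was above every PMSG array, WT hCG replicate 1 included. Spred2 rose 17.2-fold in bERKO cells (change 4.10, SE 0.40, adjusted p = 0.000161) and 4.33-fold in WT cells (change 2.12, SE 0.40, adjusted p = 0.024). The WT call was lost without WT PMSG replicate 1 (adjusted p = 0.105), without WT PMSG replicate 2 (adjusted p = 0.0921) and without WT hCG replicate 2 (adjusted p = 0.105). Of its 5 probe sets, 3 were called higher in bERKO cells, where the changes ran from -0.45 to 4.10, and 1 in WT cells, where they ran from 0.45 to 2.12. The mean of the 5 rose 3.67-fold in bERKO (change 1.88, adjusted p = 0.000857) and 2.47-fold in WT cells (change 1.30, adjusted p = 0.0398).

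**Figure D2:**
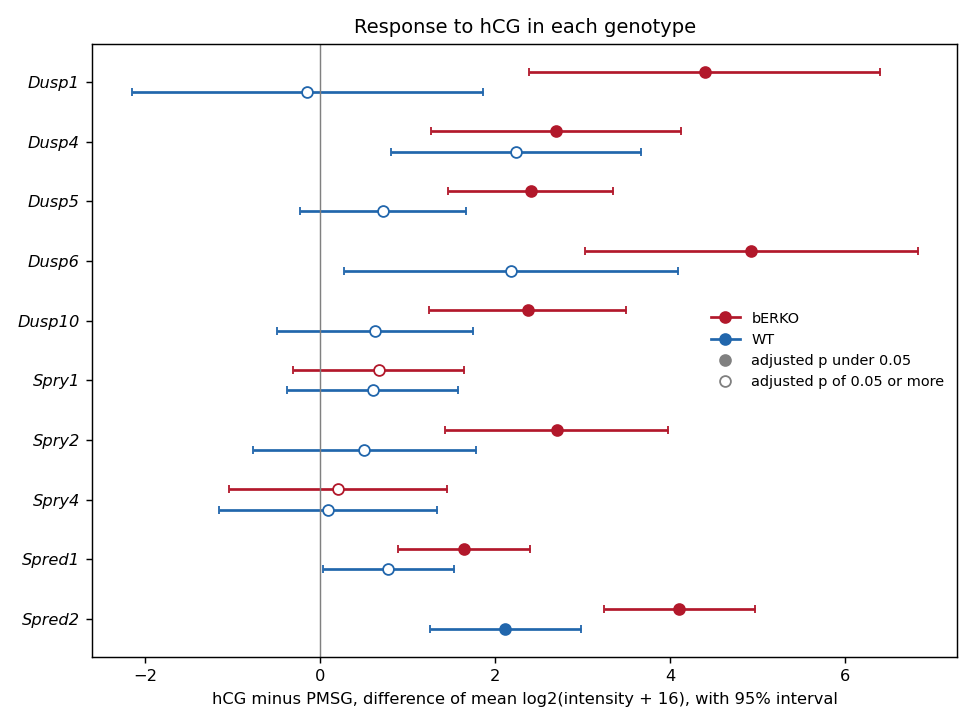
Change with hCG (hCG minus PMSG, difference of mean log2(intensity + 16)) of each feedback inhibitor, bERKO in red above WT in blue; bars are 95% intervals from the limma fit and filled points have an adjusted p under 0.05. In bERKO cells 8 of the 10 points are filled, in WT cells 1, and the intervals of the genotypes overlap for all genes but Dusp1 and Spred2. Each gene is shown by its probe set of highest mean.

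A call in bERKO and none in WT cells does not show that the responses differed, so the difference was tested itself. None of the 10 genes passed that test (smallest adjusted p = 0.114), although 6 of 10 had an unadjusted p under 0.05 with a larger response in bERKO cells, as 6.79% of all genes did. Over all genes, 1.31% were called in either direction. The difference of responses was 4.54 for Dusp1 (SE 1.30, 95% interval 1.71 to 7.38, adjusted p = 0.116), 1.99 for Spred2 (SE 0.56, adjusted p = 0.114) and 2.75 for Dusp6 (adjusted p = 0.317). It was 2.20 for Spry2 (adjusted p = 0.231), 1.74 for Dusp10 (adjusted p = 0.281), 1.69 for Dusp5 (adjusted p = 0.217), 0.86 for Spred1 (adjusted p = 0.435), 0.11 for Spry4 (adjusted p = 0.968) and 0.07 for Spry1 (adjusted p = 0.976). For Dusp4 it was 0.46, with an interval from -1.56 to 2.48 (adjusted p = 0.859). The median over the 10 genes was 1.72, against -0.11 over all genes, and 1.10 without both arrays of high Gapdh ratio. Without these arrays the difference was 3.03 for Dusp1 (adjusted p = 0.281), 1.04 for Dusp10 (adjusted p = 0.408) and -0.30 for Dusp4 (adjusted p = 0.906). Leaving out WT hCG replicate 1 alone gave 1.81 for Dusp6 (adjusted p = 0.533) and 1.45 for Spry2 (adjusted p = 0.339). Leaving out bERKO PMSG replicate 3 alone gave 3.66 for Dusp6 (adjusted p = 0.143). The Spred2 value is that of 1 probe set. Its 5 probe sets ran from -0.90 to 1.99, and their mean gave a difference of 0.57 (adjusted p = 0.518).

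Compared directly after hCG, all 10 genes had a higher mean in bERKO than in WT cells, but none was called (0 of 10 by limma, where 1.55% of all genes were called higher, 282 genes in all and 59 without bERKO hCG replicate 1), and 7 of 10 had an unadjusted p under 0.05, as 7.89% of all genes did in that direction. The 3 bERKO hCG arrays lay above the 3 WT hCG arrays for 9 of the 10 genes, all but Spry1, as they did for 11.4% of all genes. The differences were 2.27 for Spry2 (SE 0.58, adjusted p = 0.0605), 1.42 for Dusp5 (SE 0.43, adjusted p = 0.104), 2.74 for Dusp6 (SE 0.87, adjusted p = 0.117) and 2.01 for Dusp4 (SE 0.65, adjusted p = 0.126). Dusp10 differed by 1.52 (adjusted p = 0.137), Dusp1 by 2.66 (adjusted p = 0.145), Spred2 by 1.05 (adjusted p = 0.188), Spry1 by 0.85 (adjusted p = 0.364), Spred1 by 0.66 (adjusted p = 0.365) and Spry4 by 1.04 (adjusted p = 0.389). Spry2 passed without WT hCG replicate 3 (2.77, adjusted p = 0.0346) and, together with Dusp10 (adjusted p = 0.0291), without bERKO PMSG replicate 3 (adjusted p = 0.0473). The latter array is outside this comparison, so the differences stayed at 2.27 and 1.52 and only the estimated spread changed. With the mean of a gene's probe sets, Spry2 (adjusted p = 0.0234) and Dusp10 (adjusted p = 0.0331) passed, and Spred2 differed by only 0.39 (adjusted p = 0.512).

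WT hCG replicate 1, the array with the highest Gapdh ratio, was the lowest of its group for 8 of the 10 genes, all but Dusp10 and Spry1, and for 32.5% of all genes. It lay within the WT PMSG range for Dusp4, Dusp6, Spry4 and Spred1. Without it the differences after hCG were 1.81 for Dusp6, 1.52 for Spry2, 2.0 for Dusp1, 1.21 for Dusp4 and 0.30 for Spred1, and the median over the 10 genes was 1.23 in place of 1.47. The part of RNA integrity in these differences was not tested. The count of 8 holds for the probe sets that stood for the genes and depends on that choice. On the second Spry2 probe set WT hCG replicate 1 was the highest of its group (10.06, against 7.28 and 9.14).

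After PMSG alone, 0 of the 10 genes were called between bERKO and WT cells by limma (2 of 10 had an unadjusted p under 0.05, as 9.53% of all genes did, and 0.011% of all genes were called in either direction), and the mean was higher in bERKO for 4 of the 10. The differences ran from -1.88 for Dusp1 (adjusted p = 0.558) to 1.55 for Dusp4 (adjusted p = 0.48), with a median of -0.11. The smallest unadjusted p was that of Spred2 (-0.94, adjusted p = 0.48), close to that of Dusp4. Spry4 differed by 0.93, Spry1 by 0.78, Spry2 by 0.07, Dusp6 by -0.0044, Spred1 by -0.21, Dusp10 by -0.22 and Dusp5 by -0.26, with adjusted p-values of 0.627 or more. Dusp4 was the only gene of the 10 whose bERKO PMSG arrays all lay above the WT PMSG arrays, as 8.14% of all genes did. The nearest Dusp4 arrays measured 6.0 in bERKO and 5.96 in WT cells. As Dusp4 was dim there, its difference was 0.89 with log2(intensity + 64) and 2.30 with log2(intensity + 1). Without bERKO PMSG replicate 3 the differences were -1.03 for Dusp1, -0.92 for Dusp6 and 0.48 for Dusp10.

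**Figure D3:**
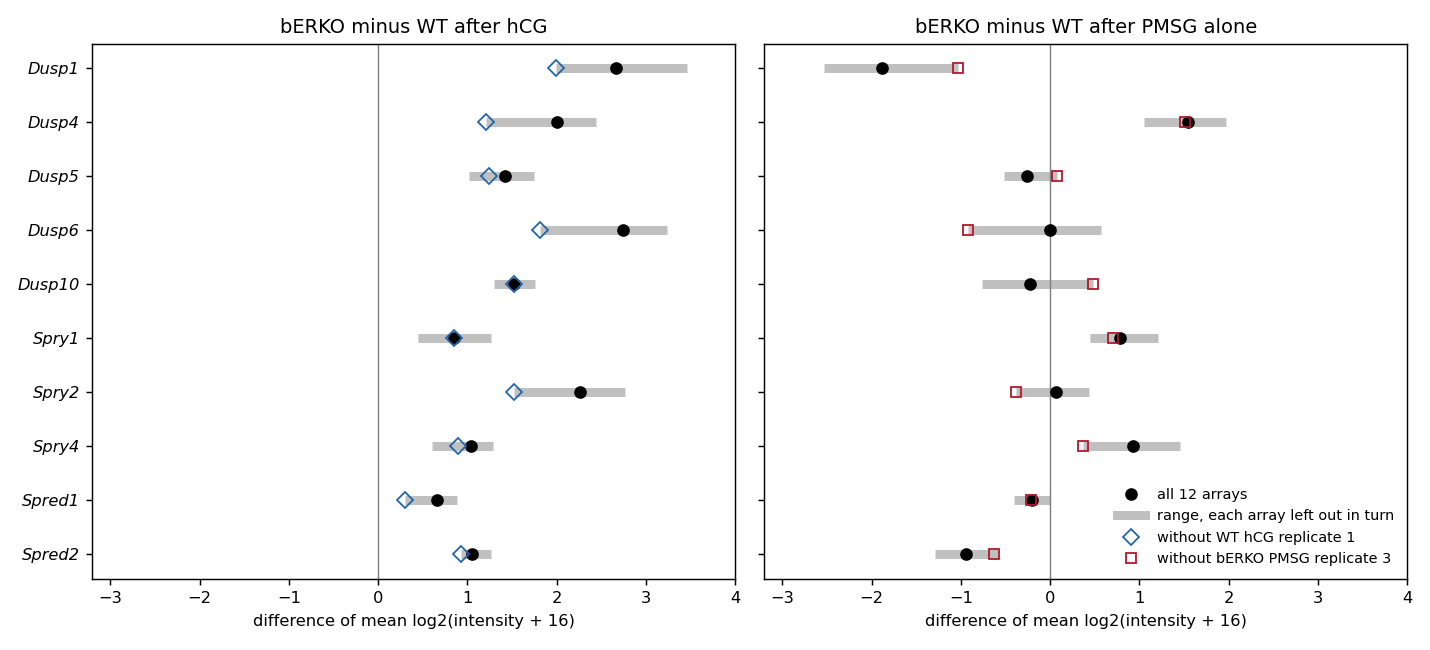
Genotype difference (bERKO minus WT, difference of mean log2(intensity + 16)) of each feedback inhibitor after hCG (left) and after PMSG alone (right). Black points use all 12 arrays, grey bars span the values with each array left out in turn, and open symbols leave out 1 of the arrays with a high Gapdh ratio. After hCG all 10 differences lie above 0 for every array left out, and after PMSG they scatter around 0.

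Markers of granulosa and of other cell types also differed between the groups, not all in the same pattern. For scale, 1.55% of all genes were called higher and 1.54% lower in bERKO hCG than in WT hCG cells. With hCG in bERKO cells, 7.05% were called higher and 11.9% lower. Of 7 measured granulosa markers, 4 were lower in bERKO hCG than in WT hCG cells (Inhbb, Gata4, Fshr and Foxl2), and the same 4 were lower in bERKO hCG than in bERKO PMSG cells. Their summed intensity was 34338 to 40440 in bERKO hCG, 61913 to 75590 in WT hCG, 48804 to 68101 in bERKO PMSG and 68345 to 78040 in WT PMSG. Mean intensity was 1643 for Foxl2 and 483 for Fshr in bERKO hCG, against 5238 and 3356 in WT hCG. Among the markers without a call, Inha and Nr5a2 were bright in every group, and Amh was under 16 on all WT arrays. Mean Nr5a2 intensity was 10921 in bERKO hCG and 15715 in WT hCG. Of 8 endothelial markers, 4 were higher in bERKO hCG than in WT hCG cells (Cdh5, Emcn, Kdr and Flt1) and 5 in bERKO hCG than in bERKO PMSG cells. Their sum was 1226 to 2742 in bERKO hCG, 267 to 562 in WT hCG, 136 to 357 in bERKO PMSG and 307 to 613 in WT PMSG. The endothelial sum of each bERKO hCG array lay above that of all other arrays, and Emcn was under 16 on all 3 bERKO PMSG arrays.

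Of 9 stroma and smooth muscle markers, 0 passed between the genotypes after hCG (smallest adjusted p = 0.0532) and 2 (Col1a2 and Pdgfrb) were higher with hCG in bERKO cells. The shares of all genes called with hCG were 7.05% higher and 11.9% lower in bERKO cells, and 0.731% higher in WT cells. The stroma sum was 4202 to 16024 in bERKO hCG, 1824 to 2479 in WT hCG, 886 to 3901 in bERKO PMSG and 649 to 6886 in WT PMSG. Of 8 leukocyte markers, 0 passed between the genotypes after hCG and 2 (Cd52 and Lyz2) were higher with hCG in bERKO cells, with sums of 607 to 1928 in bERKO hCG, 217 to 356 in WT hCG, 211 to 1093 in bERKO PMSG and 179 to 396 in WT PMSG. C1qa was under 16 on all 6 WT arrays, and C1qc on all 9 arrays outside bERKO hCG. Of 9 oocyte markers, 4 were lower with hCG in bERKO cells, and their sum was 1069 to 2756 in bERKO hCG, 560 to 1215 in WT hCG, 5876 to 17507 in bERKO PMSG and 506 to 4684 in WT PMSG. Of the 5 measured theca and steroid-making markers, Star and Cyp11a1, which granulosa cells also switch on after luteinizing hormone, were higher and Ptch1 was lower with hCG in bERKO cells, and Star was higher in WT cells. Their sum was 69219 to 72282 in bERKO hCG, 28076 to 53374 in WT hCG, 25051 to 34721 in bERKO PMSG and 35728 to 41015 in WT PMSG. The part of other cell types in the levels of the feedback inhibitors was not tested.

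**Figure D4:**
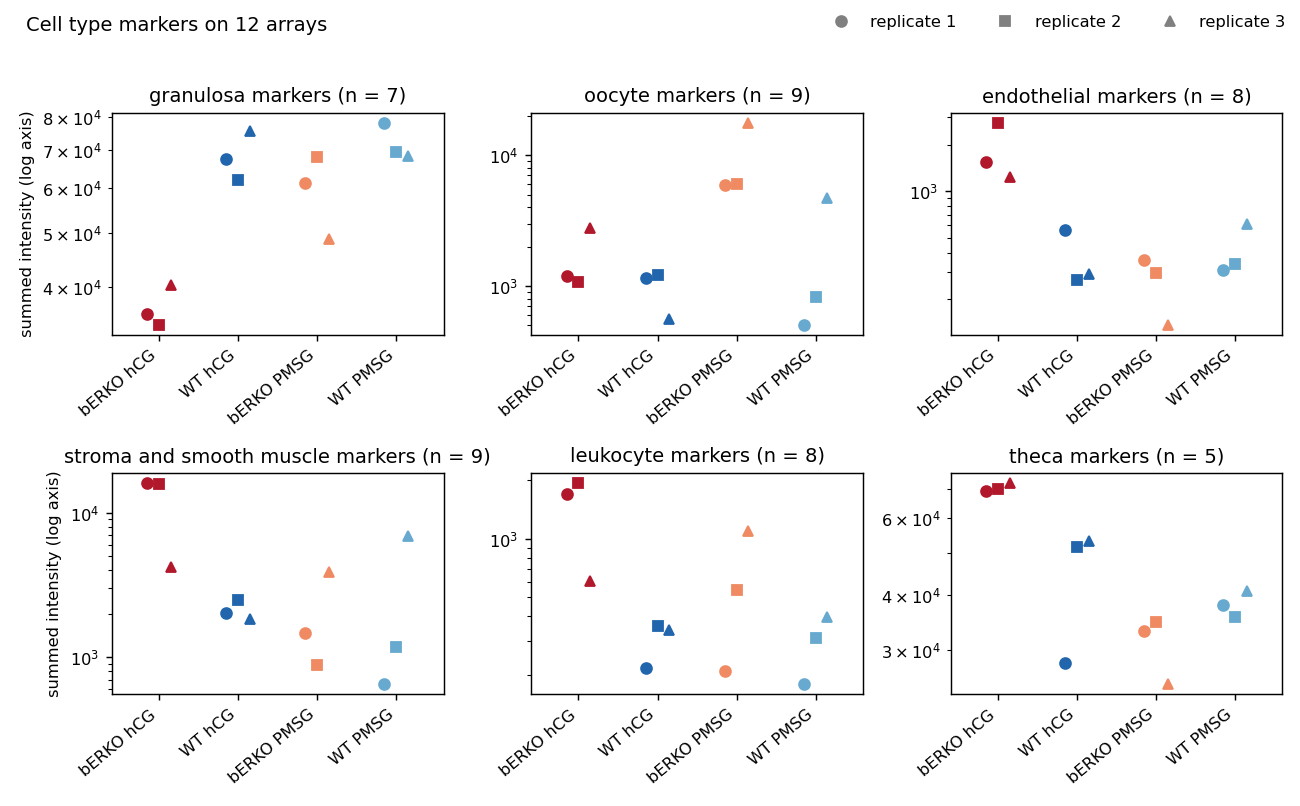
Summed normalized intensity of 6 lists of cell type markers on the 12 arrays (log axis), with the number of measured markers in each panel title and 1 symbol per array. The bERKO hCG arrays have the lowest granulosa and the highest endothelial sums, and the oocyte sums are highest in bERKO PMSG.

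EGF-like ligands act upstream of the inhibitors, at the EGF receptor. Of 6 ligands measured from a list of 7, 2 rose with hCG in bERKO cells and 1 in WT cells, where 7.05% and 0.731% of all genes were called higher. Ereg (epiregulin) measured 13.64, 13.74 and 14.10 in bERKO hCG, 8.35, 13.16 and 12.84 in WT hCG, 5.24, 4.15 and 4.09 in bERKO PMSG and 5.44, 4.49 and 4.08 in WT PMSG cells, so that WT hCG replicate 1 was again the lowest of its group. It rose by 9.33 in bERKO (SE 0.99, adjusted p = 0.000239) and by 6.78 in WT cells (adjusted p = 0.00952), or by 8.33 in WT cells without WT hCG replicate 1. Most PMSG arrays lay near the level of an intensity of 0, so the constant added before the logarithm affects the size of both rises: they were 7.67 in bERKO and 5.30 in WT cells with log2(intensity + 64), and 11.50 and 8.54 with log2(intensity + 1). Btc (betacellulin) rose by 7.62 in bERKO cells (adjusted p = 0.00106). In WT cells the change of Btc was positive as well, though without a call. The bERKO response of Btc exceeded the WT response by 3.38, and by 1.58 without WT hCG replicate 1. The 2 genotypes' ligand responses did not pass the test of their difference (Btc 3.38, adjusted p = 0.34, and Ereg 2.55, adjusted p = 0.42), nor did their levels after hCG (Btc 2.90, adjusted p = 0.197, and Ereg 2.38, adjusted p = 0.236). The size of the level differences after hCG depended on WT hCG replicate 1, without which they were 1.10 for Btc (adjusted p = 0.289) and 0.82 for Ereg (adjusted p = 0.507). They had the same size, with adjusted p-values of 0.131 for Btc and 0.428 for Ereg, when both arrays of high Gapdh ratio were left out. Without both arrays of high Gapdh ratio the differences of responses were 1.17 for Btc and 0.80 for Ereg (adjusted p = 0.285 and 0.635).

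Components of the ERK cascade moved in both directions. Of 17 components measured from a list of 23, 4 rose and 2 fell with hCG in bERKO cells, with a median change of -0.18 (over all genes, 7.05% were called higher, 11.9% lower, and the median was -0.19). The exchange factor Sos2, which loads RAS with GTP, rose by 1.72 in bERKO (adjusted p = 0.00138) and by 1.58 in WT cells (adjusted p = 0.017), and the adaptor Grb2 rose by 1.5 in bERKO cells (adjusted p = 0.0104). Also in bERKO cells Sos1 rose by 1.10 (adjusted p = 0.0181) and the docking protein Gab1 fell by 1.8 (adjusted p = 0.0131), calls lost without bERKO hCG replicate 1 (adjusted p = 0.0502 for Sos1 and 0.0516 for Gab1) and without bERKO hCG replicate 3 (0.0621 and 0.0515). In WT cells 1 component rose, Sos2, and 1 fell, the ERK-activated kinase gene Rps6ka3 (change -1.21, adjusted p = 0.0286). Between bERKO and WT cells after hCG 0 of 17 passed, with the smallest adjusted p for Sos2 (0.93, adjusted p = 0.0854) and Ksr1 (-2.10, adjusted p = 0.108).

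In the JNK and p38 cascade, 3 of 14 measured components rose and 2 fell with hCG in bERKO cells. The shares over all genes were 7.05% higher and 11.9% lower. Mapkapk3, a kinase activated by p38, measured 13.12, 13.14 and 10.83 in bERKO hCG, 10.52, 9.75 and 8.84 in WT hCG, 7.68, 8.38 and 8.22 in bERKO PMSG and 8.88, 9.65 and 9.67 in WT PMSG cells, and its hCG arrays stood clear of the PMSG arrays only in bERKO. It rose by 4.27 in bERKO cells (SE 0.60, adjusted p = 0.000859). After hCG it was the list's only call between bERKO and WT cells (2.66, SE 0.60, adjusted p = 0.0386), lost for 9 of the 12 arrays left out (adjusted p up to 0.135) and without both arrays of high Gapdh ratio (adjusted p = 0.0623). Some of the 9 were PMSG arrays, without which the difference stayed at 2.66 and only the estimated spread changed. Map2k6, an activator of p38, fell by 2.35 in bERKO (adjusted p = 0.000882) and by 1.75 in WT cells (adjusted p = 0.0257), while the JNK gene Mapk8 rose by 1.95 (adjusted p = 0.00327) in bERKO cells. Map2k3, another activator of p38, rose by 1.12 there (adjusted p = 0.0219), a call lost without bERKO PMSG replicate 1, bERKO hCG replicate 2 or bERKO hCG replicate 3 (adjusted p of 0.0725 to 0.0775).

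The family of dual-specificity phosphatases holds further members with other substrates or preferences. Of 11 of them, 2 rose and 2 fell with hCG in bERKO cells, with a median change of 0.04, where 7.05% of all genes were called higher and 11.9% lower. In WT cells 0 of 11 passed by limma (smallest adjusted p = 0.133, Dusp9). In bERKO cells Dusp16, a JNK and p38 phosphatase, rose by 1.52 (adjusted p = 0.0142) and Dusp26 fell by 2.98 (adjusted p = 0.0116). Dusp19 fell by 1.29 (adjusted p = 0.0313) and Dusp3 rose by 1.5 (adjusted p = 0.0483); the Dusp19 call was lost for 4 of the 12 arrays left out (adjusted p up to 0.111) and the Dusp3 call for 9 (up to 0.163) and without both arrays of high Gapdh ratio (0.131).

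A further list held other inhibitors of receptor tyrosine kinases and RAS. Of 17, 7 were called higher and 0 lower with hCG in bERKO cells, with a median change of 0.96 (over all genes, 7.05% higher and 11.9% lower). Errfi1, a direct inhibitor of the EGF receptor, measured 14.00, 14.14 and 14.20 in bERKO hCG, 10.60, 13.26 and 13.56 in WT hCG, 8.54, 9.70 and 10.75 in bERKO PMSG and 9.93, 10.14 and 10.33 in WT PMSG cells. It rose by 4.45 in bERKO cells (SE 0.70, adjusted p = 0.00151). The ubiquitin ligase genes Cbl (1.81, adjusted p = 0.00191) and Cblb (1.52, adjusted p = 0.00505), whose products take activated receptors out of service, rose in bERKO cells as well. Cish, which belongs to the suppressors of cytokine signalling rather than to the inhibitors of RAS, rose by 3.85 with hCG in bERKO cells (adjusted p = 0.000966) and was the list's only call between bERKO and WT cells after hCG (2.44, adjusted p = 0.04), lost for 7 of the 12 arrays left out (adjusted p up to 0.129). In WT cells 1 of 17 was called, Cbl at 1.30 (adjusted p = 0.0497, and 0.0517 without both arrays of high Gapdh ratio).

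Another list held genes widely used as transcriptional readouts of ERK activity. Of 16, 10 rose and 0 fell with hCG in bERKO cells, with a median change of 2.09, and 2 rose in WT cells, with a median of 1.25. The shares of all genes called higher were 7.05% in bERKO and 0.731% in WT cells. Egr3 measured 11.59, 11.61 and 12.21 in bERKO hCG, 5.03, 9.98 and 10.53 in WT hCG, 4.46, 4.05 and 5.06 in bERKO PMSG and 4.52, 4.12 and 5.34 in WT PMSG cells. Its WT hCG replicate 1 lay within the WT PMSG range, as it did for Dusp6. Egr3 rose by 7.28 in bERKO cells (adjusted p = 0.00113), a size that depends on the constant added, since its PMSG arrays lay near the level of an intensity of 0: it was 5.66 with log2(intensity + 64), 9.25 with log2(intensity + 1), and 4.06 with the mean of its probe sets. Ier3 rose by 4.58 (adjusted p = 0.000957), the AP-1 gene Fosl1 by 3.70 (adjusted p = 0.00111) and the receptor gene Epha4 by 3.26 (adjusted p = 0.000752) in bERKO cells. In WT cells Epha4 rose by 2.72 (adjusted p = 0.0154) and Egr1 by 2.70 (adjusted p = 0.0383). Fosl1 was the only gene of the list called between bERKO and WT cells after hCG (2.69, adjusted p = 0.0266), a call lost for 5 of the 12 arrays left out (adjusted p up to 0.0885) and without both arrays of high Gapdh ratio (adjusted p = 0.0772), and 0 of 16 passed the test of the difference of responses (smallest adjusted p = 0.116, Fosl1). Of the WT calls named from these lists, that of Ereg held for each of the 12 arrays left out. Those of Epha4, Sos2, Map2k6, Rps6ka3, Egr1 and Cbl were lost for 3, 4, 5, 6, 8 and 10 of them, with adjusted p-values up to 0.153. Fitting only the groups of the contrast lost the WT call of Ereg too (adjusted p = 0.0721). With the mean of a gene's probe sets the WT calls of Rps6ka3 (-0.42) and Cbl (0.69, adjusted p = 0.22) were lost.

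**Figure D5:**
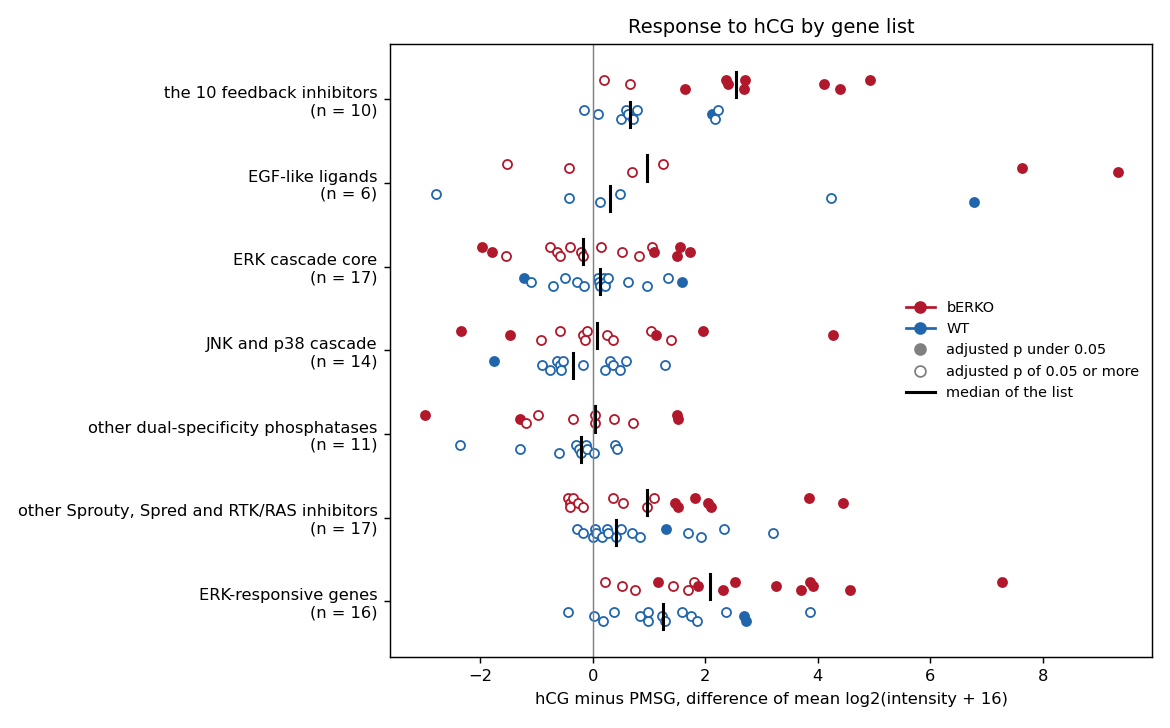
Change with hCG (hCG minus PMSG, difference of mean log2(intensity + 16)) of the 10 feedback inhibitors and of 6 lists of pathway genes, bERKO in red above WT in blue; each point is a gene, filled where its adjusted p is under 0.05, and the black bar is the median of the list. The feedback inhibitors and the ERK-responsive genes have the highest medians in bERKO cells (2.55 and 2.09), while the ERK cascade core has a median of -0.18.

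Genes whose levels followed a member most closely over the 12 arrays were looked up among 9883 genes with a mean intensity of at least 100, for the member with the largest mean hCG change in each family. For Dusp6 they were Tagln2 (Pearson r = 0.976), Inpp1 (0.973) and Zfp53 (0.972). For Spry2 they were Rtkn2 (0.975), Snap91 (0.966) and Garem1 (0.966). For Spred2 they were Coq10b (0.980), Zfp516 (0.978) and Maff (0.977). The 12 arrays fall into 4 groups, which by itself gives high correlations among genes that respond to hCG. With the group means removed, r was 0.894 to 0.906 for the 3 genes of Dusp6, 0.913 to 0.932 for those of Spry2 and 0.687 to 0.782 for those of Spred2. The genes were picked by r on these same arrays, so the remaining r is no separate check. Dusp6 departed most from its group means on the arrays of high Gapdh ratio. It was 7.16 on WT hCG replicate 1, against 9.92 and 10.01 in that group, and 8.67 on bERKO PMSG replicate 3, against 5.69 and 6.18.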

How the data were processed

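Each of the 12 samples gave 1 array (Affymetrix mouse type). Amplification and biotin labelling started, per the labels' protocols, from 25 ng of RNA and used NuGEN kits. The authors deposited a linear intensity for every probe set, and in that table each array has a 2% trimmed mean of 500; the software behind it is not stated in the labels. Of 45101 probe sets, 64 controls were left out and the other 45037 quantile normalized. A table of platform annotation named 1 gene for 34945 probe sets, several for 932, and did not list 9160. Values were analysed as log2(intensity + 16), with no filter on dim genes.

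In R 4.3.3, limma 3.58.1 with statmod 1.5.0 fitted 4 group means to the 12 arrays, with a common spread per gene; 5 contrasts were tested, each adjusted by Benjamini-Hochberg over 18193 genes, and the fit was tested on simulated data. Figures used Python 3.11.15 and matplotlib 3.10.9. The 10 genes, the pathway lists and the marker lists were chosen with earlier results of these data known. All 10 genes are named in each contrast. From each pathway list and contrast, the up to 4 called genes of smallest p are named, or the 2 of smallest p where none was called, and those with no call are given only where they bear on a result. Genes of a list that no probe set names alone are not analysed here. Precision is limited by there being 3 arrays per group. Alternatives changed the scaling, pseudocount, dim filter, probe set, samples in the fit, array weights, variance prior, replicate block and arrays left out. Leaving out an array of a group outside a contrast altered the estimated spread and the p-value, but not the change itself. Replicate numbers were not taken to pair samples: 18 correlations of same-numbered samples' deviations ran from -0.0821 to 0.119, with 1 over 0.1.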

Additional observations from a re-analysis of the deposited data

Results flagged for a closer look

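No feedback inhibitor passed the test of a difference between the hCG responses of the 2 genotypes, but 4 genes of the lists set beside them did, as did 1.31% of all genes. Among the 8 endothelial markers, the response of Cdh5 was 4.03 higher in bERKO than in WT cells (adjusted p = 0.0228) and that of Emcn 3.70 higher (adjusted p = 0.00819, limma). Mean Cdh5 intensity was 77.8 in bERKO PMSG and 349.6 in bERKO hCG, but 160.7 in WT PMSG and 33.1 in WT hCG cells. Among the 7 measured granulosa markers, the response of Inhbb, which encodes an inhibin and activin subunit, was lower in bERKO cells (-2.44, adjusted p = 0.0157). The calls of Cdh5, Emcn and Inhbb were not checked with arrays left out. Among the 14 measured components of the JNK and p38 cascade, the response of Mapkapk3 was 3.97 higher in bERKO cells (adjusted p = 0.0479). That call was lost for 11 of the 12 arrays left out, with adjusted p-values up to 0.111, and without both arrays of high Gapdh ratio (adjusted p = 0.0893).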

How the results depend on the processing

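The 8 members called higher with hCG in bERKO cells stayed 8 under every other setting tried but log2(intensity + 1), which gave 7 (Dusp4 lost, adjusted p = 0.0666), and with 1 array left out they were 7 to 8 (7 without bERKO PMSG replicate 1). No member was called between the genotypes after PMSG under any setting. After hCG the count between the genotypes was 0 as reported. It was 1 (Spry2) with each array centred on its median, log2(intensity + 64), a filter on dim genes, or a trended and robust variance prior, and 2 (Spry2 and Dusp10) with the mean of a gene's probe sets or array weights. With 1 array left out it ran from 0 to 2 (2 without bERKO PMSG replicate 3, and 1, Spry2, without WT hCG replicate 3). The WT count of 1 (Spred2) was 0 with log2(intensity + 1), with only the groups of the contrast, and without WT PMSG replicate 1, WT PMSG replicate 2 or WT hCG replicate 2. It was 3 (Dusp4, Dusp6 and Spred2) with array weights or with both arrays of high Gapdh ratio left out, a choice made with earlier results of these data known, and 2 without WT hCG replicate 1, so that single arrays moved it from 0 to 2. For the difference of hCG responses the count was 0 with each array left out and 1 with a trended and robust prior (Dusp1, adjusted p = 0.0469). The causes were not tested.

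With the replicate number as a block, the pairing that the data did not show, the WT count was 0 (Spred2, adjusted p = 0.057) and no other count of called members changed; over all genes the WT calls were 52 higher and 96 lower, against 133 and 245 without the block, and those for the difference of responses 69 and 60, against 123 and 116.

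The members named below were not called as reported, apart from Spred1 and Spred2 in bERKO cells, and changed sign where stated. Between the genotypes after PMSG, Dusp5 was 0.079 with both arrays of high Gapdh ratio out. Dusp6 was 0.11 median centred and 0.056 with log2(intensity + 64). Dusp10 was 0.14 with array weights and 0.48 with both arrays out. Spry2 was -0.050 on deposited values, -0.061 with the mean of probe sets, -0.16 with array weights and -0.38 with both arrays out. Among pathway genes, Egf was 0.15 with both arrays out and Map2k2 -0.36 with the mean of probe sets. The WT response of Dusp1 was 0.56 with array weights and 0.52 with both arrays out, and the bERKO response of Spry4 was -0.0066 median centred. The difference of responses was -0.14 for Dusp4 with log2(intensity + 1), -0.12 with array weights and -0.30 with both arrays out. It was -0.15 for Spry1 with array weights, and for Spry4 -0.0088 on deposited values and -0.11 median centred.

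With 1 array left out, the PMSG difference between the genotypes spanned -0.51 to 0.079 for Dusp5, -0.92 to 0.57 for Dusp6, -0.76 to 0.48 for Dusp10, -0.38 to 0.43 for Spry2, -0.41 to 0.0044 for Spred1 and -0.74 to 0.15 for Egf. The WT response spanned -0.95 to 0.57 for Dusp1 and -0.28 to 0.61 for Spry4, and the bERKO response -0.23 to 0.76 for Spry4. The difference of responses spanned -0.34 to 0.95 for Dusp4, -0.35 to 0.47 for Spry1 and -0.41 to 0.67 for Spry4.

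Other probe sets gave, between the genotypes after PMSG, -0.19 for Spry2, 0.050, 0.014, 0.35 and 0.24 for Spred1, and 0.73 and 0.35 for Spred2. After hCG they gave -0.0090 for Spry4, -0.54 for Spred1 and -0.17 for Spred2. In the WT response they gave -0.32 and -0.17 for Spry4 and -0.81 for Spred1, and in the bERKO response -0.12 for Spry4, -0.78 for Spred1 and -0.45 for Spred2. For the difference of responses they gave -0.38 for Spry4, -0.89 for Spred1 and -0.90 for Spred2.

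Counts over all genes moved by more than 1.5 times between settings. Between the genotypes after hCG, 282 higher and 280 lower calls ran from 81 to 655 and 106 to 584 (59 to 345 and 74 to 339 with 1 array left out). In WT cells 133 and 245 ran from 12 to 561 and 19 to 1037 (17 to 203 and 32 to 377), and in bERKO cells 1283 and 2164 from 964 to 1495 and 1591 to 3005 (874 to 1417 and 1358 to 2431). For the difference of responses 123 and 116 ran from 46 to 264 and 49 to 278 (36 to 214 and 43 to 194), and after PMSG 0 and 2 from 0 to 7 and 0 to 15 (0 to 20 and 0 to 11). The share of calls that were higher was 50.2% after hCG between the genotypes, 39.1% on deposited values and 66.5% median centred. In WT cells it was 35.2%, 43.3% and 18.1%, and in bERKO cells 37.2%, 43.0% and 24.3%, where the median of all genes was -0.19, -0.05 and -0.41. Signal over background limits Spry1, whose level lay near that of intensity 0 on some arrays, and Dusp4, which was dim in WT PMSG cells.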
